A study of Mus musculus with 3 samples.

Results

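AP-1 is a family of transcription factors, and 9 of its genes were followed here through RNA-seq of sorted mouse pre-B cells: Jun, Junb, Jund, Fos, Fosb, Fosl1, Fosl2, Batf and Atf3. They were selected by gene symbol from the 26286 genes of the count table, through their Entrez numbers, and all 9 were found. The selection was made with results of these libraries in view, the levels of Jun and Jund among them, so levels and their order are described and carry no test. The study measured 1 group of 3 libraries. The donors were CAG-rtTA3;TRE-GFP-shLuc.1309 bitransgenic mice given Dox, which switches on a hairpin RNA linked to GFP. That hairpin is a control, CAG is a broadly active promoter, and every library carries both transgenes and the drug, given for 3 days. The cells came from bone marrow and were sorted as CD25+ B220+ GFP+ cells that lacked IgM and Kit. The labels set no untreated or second group against them. Whether separate animals gave the libraries is not stated, but the Xist values given below differ as between female and male cells. The p-values measure only the spread between these samples, which may be technical in part.

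Replicate 3 held 32086649 counts, replicate 1 held 12418054 and replicate 2 held 12021576. Replicate 3 was also the library processed with CASAVA 1.8.0, against CASAVA 1.8.2 for the other two, so version, depth and library cannot be told apart. All 12 pre-B marker genes exceeded 1 RPKM in every library (RPKM is a read count divided by gene length and library size). All 14 neutrophil marker genes did too, with a summed level of 2440 RPKM in replicate 3, 1376 in replicate 1 and 1658 in replicate 2. Xist, the RNA of the inactive X chromosome, stood at 0.121 RPKM in replicate 3, against 102 in replicate 1 and 0.438 in replicate 2. Donor sex, which the labels do not give, thus very likely differed between replicate 1 and the other libraries. The 12 pre-B genes summed to 3599, 3855 and 4106 RPKM in replicates 3, 1 and 2.

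AP-1 proteins bind DNA as dimers through a basic region and a leucine zipper. Jun proteins pair with themselves, with Fos proteins or with other zipper proteins, whereas Fos proteins need a Jun partner. Fos, Fosb, Jun and Junb are immediate early genes: kinases of the ERK, JNK and p38 pathways switch them on within minutes, and their RNAs are short-lived. In B-lineage cells such signals come from cytokine receptors and from the pre-B or B cell receptor.

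The regulatory sequence just upstream of the start is shown for the Jun genes and for Fos and Fosb, the members on which the differences between libraries turn. Each is the 250 bases before the start in RefSeq (GRCm38.p6), 5′ to 3′ on the gene's strand. The table held a start for 8 of the 9 members, Fosl1 being the other one. Capitals mark matches, on either strand, to TGACG (the core of the cyclic AMP response element, CRE, and contained in its full form TGACGTCA), TGACATCA (a CRE variant known from the Jun promoter) and TATAAA (the motif that helps to place the start in some promoters).
Jun (chr4:95052223-95052472, minus strand): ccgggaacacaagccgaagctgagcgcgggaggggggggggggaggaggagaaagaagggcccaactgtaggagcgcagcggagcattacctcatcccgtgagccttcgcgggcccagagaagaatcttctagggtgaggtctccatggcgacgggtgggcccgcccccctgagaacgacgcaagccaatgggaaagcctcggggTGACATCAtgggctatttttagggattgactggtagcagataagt
Junb (chr8:84978749-84978998, minus strand): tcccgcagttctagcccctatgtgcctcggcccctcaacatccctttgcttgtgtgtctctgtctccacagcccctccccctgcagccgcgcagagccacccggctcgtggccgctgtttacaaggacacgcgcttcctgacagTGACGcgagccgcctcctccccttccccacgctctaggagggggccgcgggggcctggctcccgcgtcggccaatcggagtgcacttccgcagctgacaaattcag
Jund (chr8:70697489-70697738, plus strand): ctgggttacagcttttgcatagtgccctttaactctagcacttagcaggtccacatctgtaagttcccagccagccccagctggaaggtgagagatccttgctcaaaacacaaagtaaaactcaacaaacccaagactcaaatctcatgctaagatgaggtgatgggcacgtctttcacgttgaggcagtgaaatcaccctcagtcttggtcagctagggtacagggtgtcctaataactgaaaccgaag
Fos (chr12:85473640-85473889, plus strand): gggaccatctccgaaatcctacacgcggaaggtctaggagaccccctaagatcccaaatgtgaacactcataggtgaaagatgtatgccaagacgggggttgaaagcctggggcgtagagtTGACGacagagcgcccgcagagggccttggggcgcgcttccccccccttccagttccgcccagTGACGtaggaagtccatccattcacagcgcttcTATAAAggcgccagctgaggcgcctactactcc
Fosb (chr7:19310046-19310295, minus strand): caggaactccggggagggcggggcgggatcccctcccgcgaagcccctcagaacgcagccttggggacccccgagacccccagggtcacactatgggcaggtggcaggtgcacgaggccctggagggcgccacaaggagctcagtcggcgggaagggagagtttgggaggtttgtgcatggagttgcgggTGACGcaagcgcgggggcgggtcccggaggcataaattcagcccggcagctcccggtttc
Fos held TGACG at 129 and at 66 bases before the start and TATAAA at 33. Fosb held TGACG at 60 and Junb at 106 bases before the start. Jun held TGACATCA at 45 bases before the start. Over all 32851 promoter windows of that length, 17.8% held TGACG, 2.93% TGACATCA and 12.4% TATAAA. Batf and Atf3 also held TGACG. The Jund and Fosl2 windows held none of these 3 motifs. No member held the full CRE, present in 1.55% of all windows, or the consensus AP-1 site TGACTCA, present in 4.46%. A match describes letters only, and a window without one says nothing about the factor.

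Of the transcript of the 9 genes per unit of length, nearly all came from the 3 Jun genes. Replicate 3 held 322 RPKM of them in sum, replicate 1 held 200.5 and replicate 2 held 162.5. That was 94.9%, 96.4% and 96.7% of the sum over the 9 genes. The 4 Fos genes together held 3.99%, 1.69% and 1.01% of that sum in the same order of libraries. The Jun sum exceeded the Fos sum 23.8-fold in replicate 3, 57.2-fold in replicate 1 and 96.1-fold in replicate 2. The pool was thus most skewed to Jun genes in replicate 2 and least in replicate 3.

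**Figure D1:**
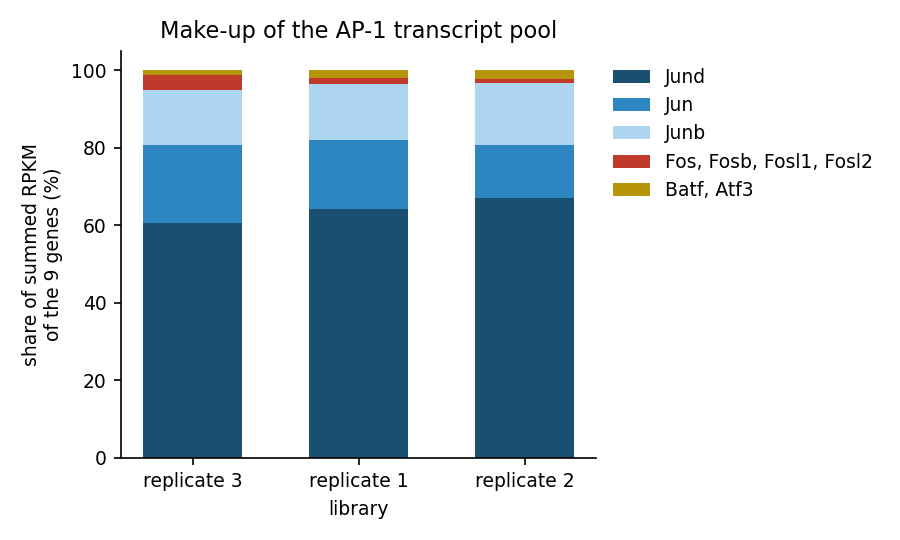
Share of the summed RPKM of the 9 AP-1 genes (vertical axis, percent) taken by each Jun gene, by the 4 Fos genes and by Batf with Atf3, 1 bar per library. Jund holds 60.6% of the replicate 3 bar, 64.3% of replicate 1 and 66.9% of replicate 2, and the Fos genes are a thin band that is widest in replicate 3.

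Jund (Entrez 16478), the Jun gene known for steady expression, was the highest member in every library. It had 206 RPKM in replicate 3, 134 in replicate 1 and 112.5 in replicate 2, from 19043, 4782 and 3879 counts (mean 150.6 ± 48.8 RPKM, SD, n = 3). Of the 17423 genes with a count, 98.4%, 97.2% and 96.6% lay below it in replicates 3, 1 and 2. Replicate 3 was high and the other libraries were closer to each other. Here Jund was not steady: its coefficient of variation (SD over mean) was 32.4%, and 94.75% of the 12147 genes tested had a lower one. For Jun and Junb that share was 99.17% and 95.09%.

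Jun (Entrez 16476), the founding member and main partner of Fos, came next by mean. It had 68.5 RPKM in replicate 3, 37.1 in replicate 1 and 23.3 in replicate 2, from 7025, 1467 and 889 counts (mean 42.95 ± 23.2 RPKM). Of the Jun genes it had the widest spread, with replicate 3 2.94-fold above replicate 2 and 1.85-fold above replicate 1.

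Junb (Entrez 16477), which can restrain Jun in dimers and is itself signal-induced, had 47.95 RPKM in replicate 3, 29.7 in replicate 1 and 26.8 in replicate 2 (mean 34.8 ± 11.5 RPKM). Its order against Jun was not fixed: on the log2(RPKM + 0.5) scale Junb minus Jun was -0.51 in replicate 3, -0.32 in replicate 1 and 0.20 in replicate 2. Jund minus Junb, by contrast, was 2.09, 2.15 and 2.05 in those libraries, a mean difference of 2.10 ± 0.05 (SD, n = 3). Jund and Junb therefore moved between libraries in nearly constant ratio, between 4.199 and 4.508. Jund minus Jun varied more, at 1.89 ± 0.34, and its ratio was 3.00 in replicate 3, 3.61 in replicate 1 and 4.83 in replicate 2.

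Fos (Entrez 14281), the prototype immediate early gene, differed most between libraries among members that passed the filter on low counts. It had 10.7 RPKM in replicate 3 from 717 counts, against 2.31 in replicate 1 from 60 counts and 0.718 in replicate 2 from 18 counts. The 95% Poisson intervals were 9.88 to 11.5, 1.76 to 2.97 and 0.425 to 1.13 RPKM and did not overlap. They cover counting error only. Replicate 3 stood 14.8-fold above replicate 2 and 4.61-fold above replicate 1. The coefficient of variation was 117%, against a median of 9.77% over the 12147 genes tested, and 99.98% of those genes had a lower one.

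Fosb (Entrez 14282), a close relative of Fos with the same kind of induction, had 182 counts in replicate 3 and 4 in each of the others. These are 1.498 RPKM in replicate 3, 0.0853 in replicate 1 and 0.0884 in replicate 2. Replicate 3 was 17.6-fold above replicate 1 (95% counting interval 6.74 to 65.2) and 16.95-fold above replicate 2 (6.51 to 62.9). Fosb was thus near the limit of detection in both smaller libraries. There Fos was 3.22-fold higher in replicate 1 than in replicate 2, while the 4 Fosb counts of each allow no such comparison.

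The Fos-related antigens were low. Fosl2 (Entrez 14284), the longer-lived Fra-2, had 1.27 RPKM in replicate 3, 0.783 in replicate 1 and 0.640 in replicate 2. Fosl1 (Entrez 14283), Fra-1, which AP-1 itself can induce, had 8, 7 and 5 counts, or 0.146, 0.331 and 0.245 RPKM, with Poisson intervals that overlapped throughout. In the annotation Fosl1 overlaps Ccdc85b, and no source used here gives the strand setting of the counting, so its low level is uncertain. Fosl2 minus Fos was -2.66 in replicate 3, -1.13 in replicate 1 and -0.09 in replicate 2 on the log2(RPKM + 0.5) scale, so that Fosl2 came closest to Fos in replicate 2, where Fos was lowest.

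Batf (Entrez 53314) encodes a small zipper protein without an activation domain that pairs with Jun proteins and binds DNA with Irf4 or Irf8. It stood at 3.71 RPKM in replicate 3, 4.01 in replicate 1 and 3.69 in replicate 2 (mean 3.80 ± 0.18 RPKM). Its coefficient of variation was the lowest of the members, and 18.1% of tested genes had a lower one. These levels rest on 108, 45 and 40 counts. Their Poisson intervals were 3.05 to 4.48, 2.92 to 5.36 and 2.64 to 5.03 RPKM. Each interval was wider than the spread between libraries, so this depth cannot show how steady Batf was. The level of Batf lay below Fos in replicate 3 and above it in replicates 1 and 2. Its partner genes were far higher, with Irf4 at 240 ± 15.6 RPKM and Irf8 at 74.7 ± 10.9 RPKM. Atf3 (Entrez 11910), a stress-induced factor that can repress, had 8, 1 and 4 counts in replicates 3, 1 and 2. That is 0.126, 0.0407 and 0.169 RPKM, and no order between libraries was detectable at this depth.

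**Figure D2:**
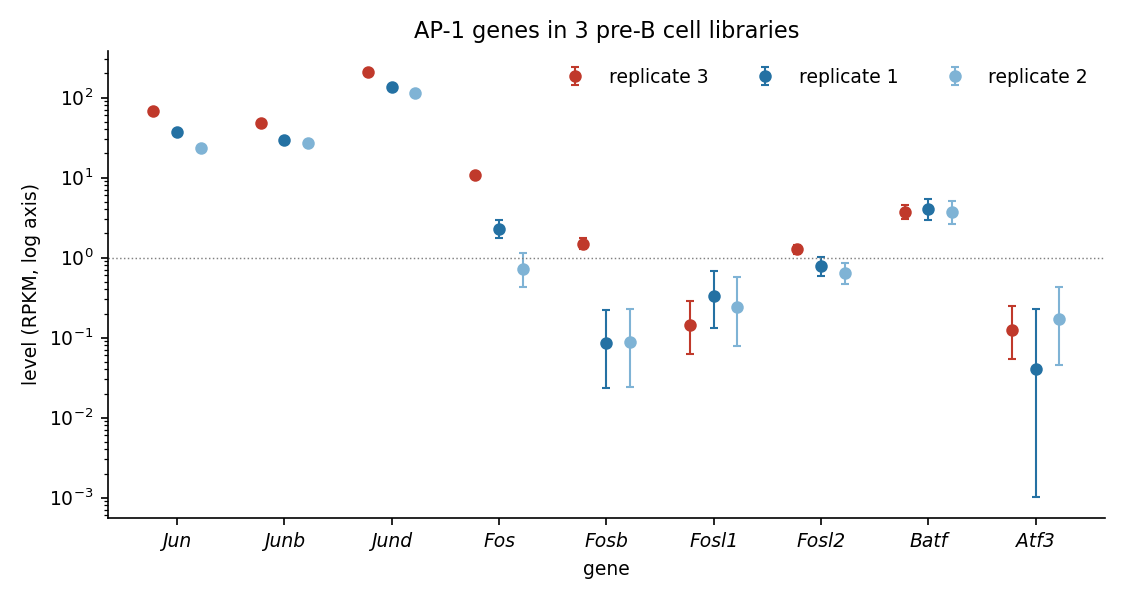
Level of each AP-1 gene (vertical axis, RPKM, log axis) in each library, with 95% Poisson intervals that cover counting error only. The dotted line marks 1 RPKM. Jund is highest throughout, Fos and Fosb are far higher in replicate 3 than in replicates 1 and 2, and the 3 Batf points coincide within their intervals.

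By mean level the order was Jund, Jun, Junb, Fos, Batf, Fosl2, Fosb, Fosl1 and Atf3. Of the neighbours in it, Jund and Jun, Junb and Fos, and Batf and Fosl2 had ranges over the libraries that did not overlap. The ranges of the other neighbours overlapped. Only Jun, Junb, Jund and Batf reached 1 RPKM in every library, 4 of 9, against 42.4% of all genes in the table. In bulk RNA a change in the share of cells that express a gene and a change in RNA per cell cannot be told apart, which holds for every value here.

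Beyond levels, the spread between libraries was set against counting noise and against the spread of all other genes. The filter on low counts kept 6 members (Jun, Junb, Jund, Fos, Fosl2 and Batf) and left out Fosb, Fosl1 and Atf3. Of these 6, all but Batf differed between libraries beyond Poisson noise in a chi-square test over the whole table, adjusted by the Benjamini-Hochberg method (5 of 6, against 54.6% of all 12147 genes tested). The adjusted p was 6.1e-78 for Fos, 1.6e-05 for Fosl2 and 0.919 for Batf. With replicate 3 left out, 3 of the 6 passed (Jun, Jund and Fos), against 25.7% of the 12217 genes then tested, and Junb (adjusted p = 0.186) and Fosl2 (0.516) no longer did. This test sets the libraries against counting error alone, without the usual spread between libraries.

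The same 5 genes had their highest level in replicate 3, where 35.1% of all tested genes had theirs. All 5 also ran in the order replicate 3, 1, 2 from high to low, an order found in 21.9% of tested genes. Replicate 1 exceeded replicate 2 in 6 of 6, against 50.3% of tested genes. Since the levels of Jun and Jund were known when the genes were chosen, nothing is read from these counts or from the members' tests, which are given as a description.

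Replicate 3 was compared with replicates 1 and 2 by edgeR's quasi-likelihood test over all 12147 genes. No AP-1 gene passed an adjusted p of 0.05, where 0.0741% of all genes did (9 genes). Of these 9, 7 were higher in replicate 3 (0.0576%) and 2 lower (0.0165%). At an unadjusted p under 0.05, 5 of the 6 were higher in replicate 3, as were 5.01% of all genes. The spread in this test comes from replicates 1 and 2 alone, and replicate 3 is assumed to vary as they do. The log2 fold change was 2.80 ± 0.44 for Fos (SE, adjusted p = 0.153), 1.18 ± 0.23 for Jun (0.229), 0.83 ± 0.27 for Fosl2 (0.418), 0.76 ± 0.13 for Junb (0.172), 0.74 ± 0.15 for Jund (0.229) and -0.05 ± 0.29 for Batf (0.968). The fold change reached 0.7 in 5 of the 6, against 2.25% of all genes. That cut was not planned and lies just under the value of Jund, so nothing is read from this contrast. The median over the 6 was 0.80, against -0.01 over all genes tested. In DESeq2, where 0.173% of genes were called higher, the adjusted p was 0.0088 for Jund, 0.0745 for Junb and 1 for Jun, Fos, Fosl2 and Batf. For Fos the adjusted p varied with the setting, at 0.0310 in edgeR with libraries scaled by total counts alone and 0.578 in edgeR over all genes with a count, with a fold change of 2.81 and 2.82. Fosb, which the filter left out, had an adjusted p of 0.305 in edgeR over all genes with a count.

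**Figure D3:**
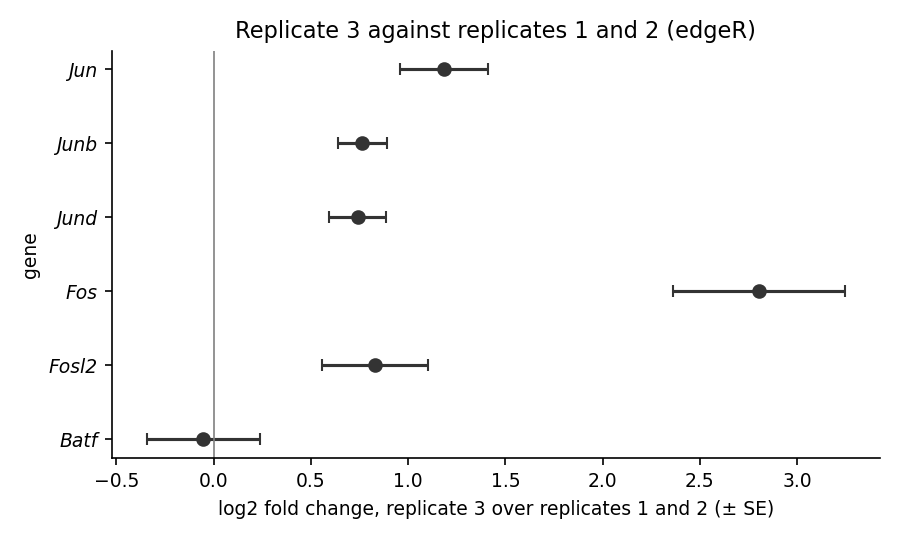
The log2 fold change of replicate 3 over replicates 1 and 2 from edgeR (horizontal axis, with its SE) for the 6 AP-1 genes that passed the count filter. Fos lies at 2.80, Jun at 1.18, and Fosl2, Junb and Jund between 0.74 and 0.83, while the Batf interval spans 0.

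RNAs of the kinases and factors that act on AP-1 genes had small fold changes between replicate 3 and the others. RNA levels do not show how active these proteins were, which was not measured. Of 12 upstream kinases, 11 were tested and none passed edgeR's test in either direction (0.0741% of all genes did), with fold changes between -0.18 and 0.25 on the log2 scale and a median of 0.00. Beyond counting noise, 6 of the 11 differed between libraries, against 54.6% of all genes. The summed level was 356.5 RPKM in replicate 3, 354.7 in replicate 1 and 355.7 in replicate 2. The p38 kinase gene Mapk14 stood at 41.4 ± 3.93 RPKM and the JNK activator gene Map2k7 at 40.1 ± 2.72 RPKM. Of the JNK genes, Mapk9 stood at 23.5 ± 2.74 RPKM, Mapk8 at 8.81 ± 0.62 RPKM, and Mapk10, known from neurons, had 1, 0 and 3 counts in replicates 3, 1 and 2. All 8 upstream transcription factors were tested, none passed edgeR's test (median 0.05) and 6 differed beyond counting noise, against 54.6% of all genes. The highest were Mef2d at 180 ± 6.20 RPKM and the ternary complex factor Elk4 at 59.05 ± 5.91 RPKM.

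Levels of other leucine zipper genes were also taken. They are RNA levels and do not show which proteins were available as dimer partners. Bach2, a B-lineage repressor that binds AP-1-like sites with small Maf proteins, stood at 210.5 ± 37.2 RPKM, below Jund in replicate 3 and above it in replicates 1 and 2. Atf4, the factor of the integrated stress response, had 132 ± 23.05 RPKM, Creb1 36.6 ± 1.46 RPKM and the antioxidant regulator Nfe2l2 35.0 ± 2.54 RPKM. The relatives of Batf were near the limit of detection, with Batf2 at 0, 0 and 1 counts and Batf3 at 2, 0 and 0 counts in replicates 3, 1 and 2. Of the 15 genes in this list 11 were tested, none passed, and the median log2 fold change was 0.07.

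Genes of AP-1 turnover and RNA decay were all above 1 RPKM in every library, 8 of 8. Zfp36, whose protein binds the AU-rich tails of short-lived RNAs such as Fos, had 188 ± 37.4 RPKM. The phosphatase gene Dusp1, which switches off JNK and p38 and is an immediate early gene itself, had 15.8 RPKM in replicate 3, 7.503 in replicate 1 and 4.51 in replicate 2. It was high in replicate 3 and low in replicate 2 like Jun, with a log2 fold change of 1.40 ± 0.26 (edgeR adjusted p = 0.222, DESeq2 0.0338). Fbxw7, a subunit of the ubiquitin ligase for Jun, had 10.98 ± 1.80 RPKM.

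Among the other immediate early genes, 11 of 14 were tested and none passed in edgeR, with a median log2 fold change of 0.45. Of the 11, 9 were highest in replicate 3, against 35.1% of all tested genes. The highest levels were those of the inhibitor Nfkbia (209 ± 9.40 RPKM), Zfp36, the phosphatase Dusp2 (142.5 ± 33.9 RPKM) and the factor Klf2 (109 ± 18.2 RPKM), and the lowest those of Egr2 (0.123 ± 0.021 RPKM) and Egr3 (0.341 ± 0.148 RPKM). All 6 tested heat shock genes of 8 were highest in replicate 3 and lowest in replicate 2, an order found in 21.9% of all tested genes. No heat shock gene passed, and the median of the 6 was 0.50. The chaperone Hspa8 had 137 RPKM in replicate 3, 116 in replicate 1 and 68.65 in replicate 2, and Hspb1 was at 0 throughout, a result that leaves room for 0.277 RPKM in replicate 2, the smallest library (3 counts).

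Of the known AP-1 target genes that were tested, 4 of 6 had their highest level in replicate 3, against 35.1% of all tested genes. So few genes allow no reading of that share. The 11 listed genes summed to 289 RPKM in replicate 3, 293 in replicate 1 and 244 in replicate 2, and most of that was Vim. Of 11 genes, 6 were tested and none passed in edgeR (median 0.47, range -0.36 to 1.29), while Mmp9, a gelatinase that neutrophils also make, passed in DESeq2 (adjusted p = 0.0344). Mmp9 had 21.99 RPKM in replicate 3, 10.9 in replicate 1 and 12.7 in replicate 2. Plaur had 3.74, 1.44 and 1.61 RPKM and Ccnd1 1.47, 0.933 and 0.769 RPKM in the same order of libraries. The intermediate filament gene Vim had 221, 242 and 190 RPKM in replicates 3, 1 and 2, the adhesion receptor Cd44 38.3, 34.0 and 34.9 RPKM, and Hmox1 2.76, 3.58 and 3.495 RPKM. Mmp3, Il2 and Ccl2 had no counts in any library, so that levels of up to 0.139, 0.264 and 0.311 RPKM in replicate 2 remain possible.

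**Figure D4:**
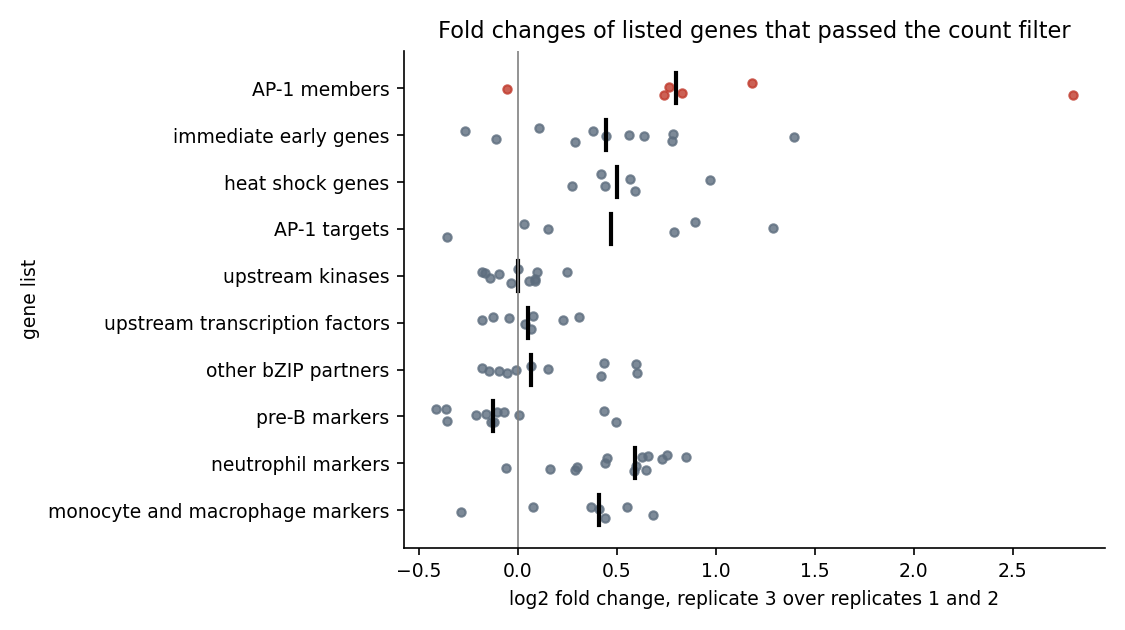
The log2 fold change of replicate 3 over replicates 1 and 2 (horizontal axis) for each tested gene of 10 lists, 1 point per gene (vertical jitter only), with the list median as a bar. The AP-1 median is 0.80 with Fos far to the right, the kinase median is 0.00, and the heat shock (0.50) and neutrophil (0.59) medians also lie above 0.

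Most markers of myeloid cells, which also express Fos and Jun genes, had higher values in replicate 3 too. None of the neutrophil or monocyte genes tested passed in edgeR, and the neutrophil genes S100a8 and S100a9 passed in DESeq2 (adjusted p = 0.0128 and 0.0212). Of the 14 neutrophil genes 11 were highest there, against 35.1% of all tested genes, and Mpo, Elane and Mmp8 were not. The summed level of the 14 genes in replicate 3 was 1.77-fold that of replicate 1 and 1.47-fold that of replicate 2. For the 9 monocyte and macrophage genes these folds were 1.435 and 1.207, with Cd14 at 17, 1 and 0 counts in replicates 3, 1 and 2. Itgam was nearly level, at 15.96, 14.41 and 15.9 RPKM in that order, and Mrc1 was lowest in replicate 3 (0.164, 0.227 and 0.173 RPKM). The 5 basophil and mast cell genes summed to 23.5 RPKM in replicate 3, 3.38 in replicate 1 and 7.06 in replicate 2, and the protease gene Prss34 passed in DESeq2 (adjusted p = 0.0012) but not in edgeR (0.0769). The 9 T and NK cell genes summed to 4.88, 3.25 and 4.04 RPKM, and the 7 erythroid genes to 7.63, 8.64 and 7.84 RPKM in that order of libraries. The neutrophil, monocyte and basophil sums were lower in replicate 1 than in replicate 2. Single genes varied: 4 of 14 tested neutrophil genes, Mpo among them, were higher in replicate 1. So was 1 of 7 tested monocyte genes, Mrc1, against 50.3% of all tested genes. Jun, Junb, Jund, Fos and Fosl2 were also higher in replicate 1 than in replicate 2. The ribosomal RNA gene Rn28s1 took 0.0467% of the counts of replicate 3, 0.0257% of replicate 1 and 0.0145% of replicate 2, the order of Jun. The part of these cells, of ribosomal RNA, of donor sex or of depth in the AP-1 values was not tested.

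Genes with the most similar pattern were found by the distance between log2 CPM deviations over the 3 libraries, which is a description over few points. Nearest to Jun were Itgax (distance 0.06), Rn28s1 (0.11), Pla2g4c (0.12), Atp2b4 (0.12) and Cd36 (0.13). Itgax, the CD11c integrin chain of myeloid cells, had 126, 26 and 16 counts in replicates 3, 1 and 2. Fos had no neighbour as close: its nearest were the histone gene H2bc8 (0.78), Gm19366 (0.82), the pseudogene Rps13-ps4 (0.92), an Entrez number with no symbol (627371, 1.04) and Siglech (1.05), a receptor of plasmacytoid dendritic cells. Reads of pseudogenes and histone genes can come from near-identical copies, so those 2 kinds of value are uncertain.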

How the data were processed

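RNA of sorted pre-B cells was sequenced in 3 libraries of 1 group. The authors deposited whole-number counts for each Entrez gene, without normalization, together with the length of each gene. The tools were featureCounts and CASAVA and the build mm9, per the submitters' processing notes; CASAVA was 1.8.0 for replicate 3 and 1.8.2 for replicates 1 and 2, per the labels. No source used here gives the aligner, annotation or strand setting. Symbols came from RefSeq GRCm38.p6 by Entrez number, for names only, and 24176 of 26286 numbers matched; promoter sequences came from the same source.

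Totals ran from 12021576 to 32086649 counts. RPKM was computed from the counts with TMM-scaled library sizes. For tests, filterByExpr (minimum count 10, applied as 0.805 CPM in all 3 libraries, and minimum total 15) kept 12147 genes; in replicate 3 this CPM is 25.8 counts. The Poisson chi-square test and edgeR 4.0.16's quasi-likelihood test (R 4.3.3; DESeq2 1.42.0 as alternative) were run over all of them, adjusted by Benjamini-Hochberg with a threshold of 0.05, and tested on simulated data. Intervals are 95% Poisson intervals. The log2 CPM values used a prior count of 2. Figures were drawn with matplotlib 3.10.9.

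The members, the lists and the tests were chosen with earlier results of these data known. Named are all members, up to 4 of the highest and 2 of the lowest genes of each list, and the 5 nearest genes to Jun and to Fos. Xist, Rn28s1, Mapk9, Plaur, Ccnd1 and single marker genes were named after their values were seen. Alternatives were other scalings, all genes with a count, TPM, other pseudocounts, DESeq2 and leaving out replicates. A count minimum met in 1 library was added after seeing the data. The values of 1 listed kinase gene are not reported here.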

Additional observations from a re-analysis of the deposited data

How the results depend on the processing

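With replicates 1 and 2 alone, Fos averaged 1.51 RPKM, Fosb 0.0868 RPKM and Jun 30.2 RPKM, against 4.56, 0.557 and 42.95 RPKM over all 3 libraries. The number of genes past the Poisson test was 6627, between 3142 and 5566 with 1 replicate left out, 6621 with DESeq2 size factors and 6693 over all genes with a count. The comparison of replicate 3 with the others called 9 genes, 23 with total counts alone, 36 with DESeq2, 22 with the minimum met in 1 library (an alternative chosen after seeing the data) and 0 over all genes with a count; the cause was not tested. Unadjusted p-values under 0.05 numbered 1169 in edgeR, 458 in DESeq2 and 1224 in edgeR over all genes with a count. The fold change of Batf was -0.05, 0.0077 without replicate 1 and -0.11 without replicate 2. Fos minus Fosb was 1.93 with a pseudocount of 0.5 and 2.86 with 0.1, since Fosb is near 0. The count of members at 1 RPKM or more was 4, and 6 when TPM replaced RPKM at the same value. Of the 8 differences between members, 6 had 1 sign in every library. Depth limits Fosl1, Atf3 and, outside replicate 3, Fosb, which had 8 or fewer counts. No paired analysis was possible because the series holds 1 group.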
